A study of Mus musculus and Homo sapiens with 8 samples.

Results

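The genes described here encode the nuclear subunits of the 4 respiratory complexes, cytochrome c and the mitochondrial ATP synthase, together with a few assembly factors. They were picked by symbol among the protein-coding entries of the deposited gene table. The symbols were those that open with Nduf, Uqcr or Atp5, those that open with Cox4, Cox5, Cox6, Cox7 or Cox8 and go on with a letter, and Sdha, Sdhb, Sdhc, Sdhd, Cyc1 and Cycs. This gave 88 of the 13359 distinct genes, and all 88 passed the filter on low values (at least 1 FPKM in at least 2 of the 4 libraries). FPKM is the number of reads on a gene, scaled by the length of the gene and by the read total of the library. Symbols opening with mt- were also sought, but the 2 such entries are ribosomal RNAs. The 13 protein genes of the mitochondrial chromosome are listed under names such as ND1 and COX1. They were found by their position after the table had been seen, and are described beside the 88.

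The RNA came from small intestinal crypts, the glandular pockets that hold the stem and dividing cells of the gut lining, of untreated C57BL/6 mice aged 2 months. There were 2 libraries of mice with the APCmin+ mutation and Zmynd8 IEC-/-, a deletion labelled as specific to intestinal epithelial cells, and 2 libraries of APCmin+ mice without it. All 4 libraries therefore carry the Apc Min allele, which truncates a brake on Wnt signalling and leads to intestinal adenomas, and none comes from mice with intact Apc. Each library was a pool of equal RNA mass from 3 mice, and the labels used here do not name the driver of the deletion. No label says whether pools of a group came from separate litters or days, and the p-values below cover only how far the pools differed from each other, which may be technical.

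The respiratory chain passes electrons from NADH (through complex I) and from succinate (through complex II) by way of ubiquinone, complex III and cytochrome c to complex IV, which reduces oxygen. Complexes I, III and IV pump protons across the inner mitochondrial membrane, and the ATP synthase, or complex V, uses their return to make ATP. Complex II is wholly encoded in the nucleus, while the other complexes combine nuclear subunits with a few encoded in mitochondrial DNA. In the gut, absorptive enterocytes and dividing crypt cells are known to differ in how far they rely on mitochondrial respiration.

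The library totals behind the FPKM values were 46551218 and 47990019 reads in the libraries labelled knockout, and 44718091 and 48778712 reads in Apc Min. The level of Zmynd8 was 7.30 and 7.65 FPKM in labelled knockouts, against 6.94 and 4.73 FPKM in Apc Min. It was therefore not lower, so the targeted gene gave no check of the labels, and directions below rest on the labels alone. Of 12948 genes tested, 77 were called higher in the libraries labelled knockout (0.595%) and 17 lower (0.131%) at a limma adjusted p under 0.05. Over all genes tested the median difference was -0.15 on the log2 scale, and median-ratio scaling moved it by 0.15, and group medians below are also set against that value. Markers of absorptive enterocytes were positive for 18 of 18 genes tested, of which 4 were called higher. Their summed level was 25729.8 and 30525.1 FPKM in labelled knockouts, against 15467.3 and 17257.1 FPKM in Apc Min. The 12 proliferation markers were all negative with 0 called (0 with limma-voom as well). Of the 12, 11 were lower at an unadjusted p under 0.05 (against 19.1% of all genes tested). The 12 summed to 194 and 195 FPKM in labelled knockouts, against 295 and 266 FPKM in Apc Min. Markers of epithelium in general and of Paneth cells were present, beside the enterocyte markers above. The 7 epithelial markers summed to 5972 and 5639 FPKM in labelled knockouts, against 6925 and 7574 FPKM in Apc Min, and the 6 markers of Paneth cells, which sit at the crypt base, to 4454 and 6336 FPKM in labelled knockouts, against 7297 and 9552 FPKM in Apc Min. All 6 Paneth markers were negative, with 2 called lower by limma and 3 by limma-voom (against 0.131% and 0.178% of all genes tested). The 10 crypt stem cell markers summed to 157 and 162 FPKM in labelled knockouts, against 257 and 243 FPKM in Apc Min. They had a median level of 8.72 FPKM, against 729 FPKM for the enterocyte markers. All 10 of 10 crypt stem cell markers were negative, with 0 called by limma or limma-voom. Of these, 5 were lower at an unadjusted p under 0.05 (against 19.1% of all genes tested). In such bulk RNA, a different number of cells of a type and a different amount of RNA per cell cannot be told apart.

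Most nuclear respiratory genes had slightly positive fold changes (labelled knockout over Apc Min), and none of the 88 passed the limma test. With 0 called higher and 0 called lower, 1 was higher at an unadjusted p under 0.05 (Cox7a1, against 7.49% of all genes tested) and 3 were lower (Ndufaf3, Ndufv3 and Ndufaf6, against 19.1% of all genes tested). Limma-voom on recovered reads called 1 higher (Cox7a1, against 1.54% of all genes tested) and 0 lower (against 0.178%). Of the 88 log2 fold changes 60 were positive (against 28.3% of all genes tested) and 28 negative, from -0.37 to 1.002, and their median was 0.07 (0.22 above that of all genes). There were 29 genes whose values were higher in both libraries labelled knockout than in both Apc Min libraries (33.0%, against 14.9% of all genes tested), and 12 that were lower in both (13.6%, against 48.5%). After median-ratio scaling these counts were 62 (against 27.9% of all genes tested) and 4 (against 28.3%), with 81 positive and a median of 0.24. Of all 12948 genes tested 6303 were positive then. Quantile normalization gave 65 positive of the 88, around a median of 0.10, and 5976 positive of all 12948. On simulated data with the spread of these libraries, the test called 0% of 48 genes changed 1.2-fold, 13.7% of 51 changed 1.5-fold and 79.6% of 54 changed 2-fold, so differences of the size found for most of these genes were below what 2 libraries a group can call.

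The 79 subunit genes, with Cycs counted among them, were mostly positive, and 8 of the 9 assembly and other genes were negative. Of all genes tested 28.3% were positive. Set against all genes the median of the 9 was -0.06, and after median-ratio scaling 4 of the 9 were positive. The 79 split into 59 positive and 20 negative values, with a median of 0.09 (0.25 above that of all genes). After median-ratio scaling 77 were positive around a median of 0.26, and after quantile normalization 61 were positive around 0.10. Their summed level was 11112.4 and 11941.2 FPKM in labelled knockouts, against 10532.3 and 11042.5 FPKM in Apc Min. Replicate 2 of the libraries labelled knockout held the highest value for 50 of the 79 genes, and Apc Min replicate 1 the lowest for 37. Without that replicate 2 the median was 0.04. Whether this small shift is tied to the enterocyte markers, whose sum was also highest in replicate 2 of the libraries labelled knockout and lowest in Apc Min replicate 1, was not tested.

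**Figure D1:**
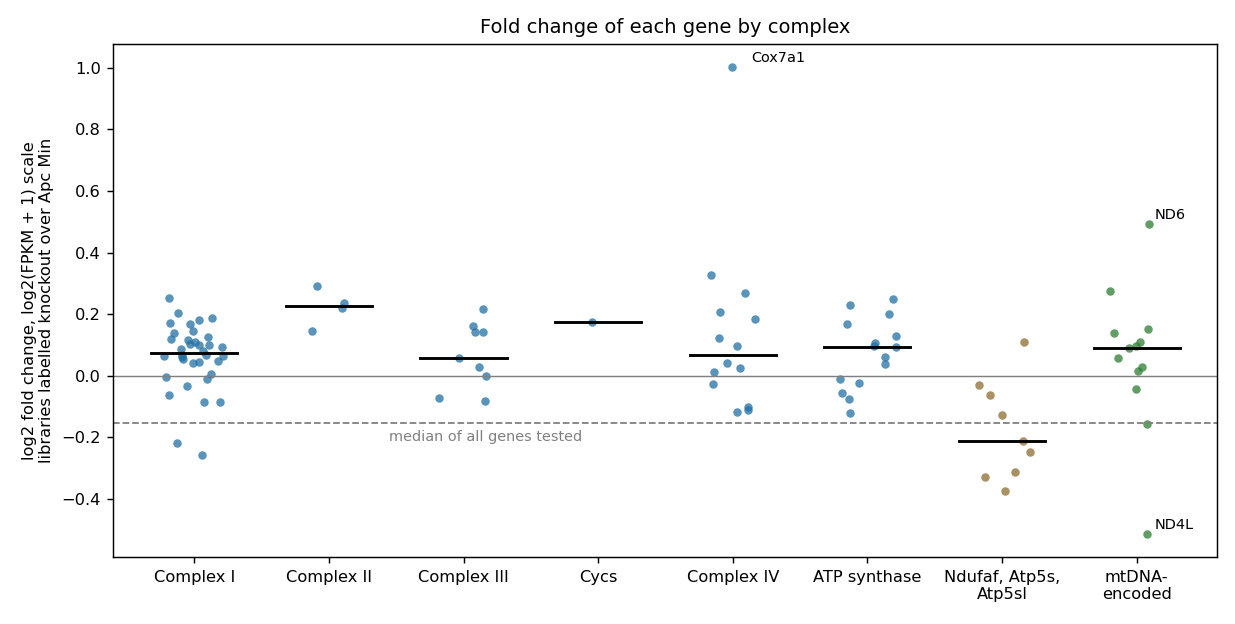
Log2 fold change of each gene (1 point a gene; libraries labelled knockout over Apc Min, on the log2(FPKM + 1) scale, 2 libraries a group), grouped by complex. Black bars are group medians and the dashed line is the median of all genes tested, -0.15; most nuclear subunit genes lie between -0.12 and 0.25, with Cox7a1 apart at 1.002 and the assembly genes centred at -0.21.

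Complex IV held the gene with the largest fold change of the 88. Cox7a1 (chr7:30184171-30186030, plus strand, mm10) encodes the isoform of subunit 7a known from heart and skeletal muscle. It had 88.8 and 103 FPKM in labelled knockouts, against 45.3 and 49.3 FPKM in Apc Min, resting on 1513 and 1812 reads in labelled knockouts, against 742 and 881 reads in Apc Min. Both libraries labelled knockout lay well above both Apc Min libraries. The means were 96.0 ± 10.2 FPKM and 47.3 ± 2.84 FPKM (SD, n = 2 each), a log2 fold change of 1.002 (SE 0.12, 95% interval 0.69 to 1.31) with an unadjusted p of 0.000397 and a limma adjusted p of 0.0512, just outside the threshold. It passed with limma-voom (adjusted p = 0.0445), after scaling each library to the same sum over nuclear genes (adjusted p = 0.0372, where 0.834% of genes were called higher) and without Apc Min replicate 2 (adjusted p = 0.0396, where 1.83% were called higher and 3.06% lower). It did not pass under the other alternatives, where the adjusted p ran between 0.0506 after quantile normalization and 0.381 without replicate 2 of the libraries labelled knockout. In the authors' deposited table its q-value was 0.00315, and 168 of 13359 genes (1.26%) had a q-value under 0.05 with a higher level and 117 (0.876%) with a lower one.

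The widely expressed partner of Cox7a1 had a smaller fold change. Cox7a2 had 108 and 118 FPKM in labelled knockouts, against 101 and 94.97 FPKM in Apc Min (log2 fold change 0.21, limma adjusted p = 0.272). Cox7a1 therefore made up 45.1% and 46.6% of the summed FPKM of these 2 isoform genes in labelled knockouts, against 31.0% and 34.2% in Apc Min. The groups did not overlap in this share. Cox7a2l, which encodes a related protein of respiratory supercomplexes, had 76.2 and 79.0 FPKM in labelled knockouts, against 85.9 and 80.8 FPKM in Apc Min (-0.10, and 0.07 after median-ratio scaling). Since Cox7a1 is known from muscle, muscle genes were looked up after its values were seen: Acta2 stood at 75.5 and 62.3 FPKM in labelled knockouts, against 56.7 and 114 FPKM in Apc Min, Myh11 at 82.5 and 65.9 FPKM in labelled knockouts, against 47.9 and 119 FPKM in Apc Min, and Des at 55.9 and 46.1 FPKM in labelled knockouts, against 42.1 and 96.6 FPKM in Apc Min. All 3 muscle genes were highest in Apc Min replicate 2 and lowest in Apc Min replicate 1; their part in the Cox7a1 result was not tested. In all, 8 of the 9 stromal, endothelial and muscle markers were negative, with sums of 316 and 288 FPKM in labelled knockouts, against 307 and 427 FPKM in Apc Min. Their median was -0.23, or -0.08 against all genes, of which 28.3% were positive. Capns1, the neighbouring gene on the opposite strand, had 60.3 and 56.3 FPKM in labelled knockouts, against 89.0 and 69.8 FPKM in Apc Min, so its values went the other way.

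The promoters of the 5 members with the largest log2 fold changes among those with a RefSeq window, and of the isoform partner Cox7a2, are shown because the factors NRF1, GABPA (of the ETS family) and YY1 are known to bind many respiratory gene promoters. Each window runs from 250 bases before to 50 bases after the RefSeq start (GRCm38.p6), is written 5′ to 3′ on the strand of the gene, and has in capitals any match to NRF1 (GCGCANGCG), ETS (CCGGAAG) or YY1 (AAGATGGCG) on either strand. They are Cox7a1 at chr7:30183921-30184220 (plus strand), Cox6b2 at chr7:4753045-4753344 (minus strand), Cox6a1 at chr5:115348909-115349208 (minus strand), Ndufa3 at chr7:3617123-3617422 (plus strand), Atp5g3 at chr2:73911277-73911576 (minus strand) and Cox7a2 at chr9:79759804-79760103 (minus strand).
Cox7a1: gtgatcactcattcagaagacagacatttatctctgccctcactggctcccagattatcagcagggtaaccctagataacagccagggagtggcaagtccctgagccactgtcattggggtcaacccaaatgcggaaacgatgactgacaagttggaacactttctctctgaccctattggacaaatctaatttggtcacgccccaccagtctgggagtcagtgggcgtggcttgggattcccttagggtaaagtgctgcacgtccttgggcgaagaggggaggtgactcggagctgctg
Cox6b2: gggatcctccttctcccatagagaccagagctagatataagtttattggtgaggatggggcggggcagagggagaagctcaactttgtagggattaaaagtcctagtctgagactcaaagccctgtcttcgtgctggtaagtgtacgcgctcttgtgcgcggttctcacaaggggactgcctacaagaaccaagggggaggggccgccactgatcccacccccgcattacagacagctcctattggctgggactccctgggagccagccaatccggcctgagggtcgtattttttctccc
Cox6a1: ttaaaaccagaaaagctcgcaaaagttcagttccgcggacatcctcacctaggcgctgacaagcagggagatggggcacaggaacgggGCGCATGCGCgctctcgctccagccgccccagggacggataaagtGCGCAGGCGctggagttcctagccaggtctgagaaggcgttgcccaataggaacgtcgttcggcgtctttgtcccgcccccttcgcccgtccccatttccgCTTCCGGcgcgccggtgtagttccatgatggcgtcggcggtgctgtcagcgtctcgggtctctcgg
Ndufa3: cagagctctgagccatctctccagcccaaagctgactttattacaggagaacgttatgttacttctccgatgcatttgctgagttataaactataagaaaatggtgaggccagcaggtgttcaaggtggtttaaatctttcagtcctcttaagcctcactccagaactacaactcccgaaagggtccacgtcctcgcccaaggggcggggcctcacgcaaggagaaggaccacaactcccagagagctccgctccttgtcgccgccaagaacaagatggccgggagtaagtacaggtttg
Atp5g3: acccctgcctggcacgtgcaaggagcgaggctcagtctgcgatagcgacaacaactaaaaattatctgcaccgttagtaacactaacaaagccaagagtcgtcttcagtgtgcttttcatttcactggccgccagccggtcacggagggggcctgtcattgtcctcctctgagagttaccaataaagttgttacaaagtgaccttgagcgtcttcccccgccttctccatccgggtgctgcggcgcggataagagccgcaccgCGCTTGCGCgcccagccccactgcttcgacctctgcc
Cox7a2: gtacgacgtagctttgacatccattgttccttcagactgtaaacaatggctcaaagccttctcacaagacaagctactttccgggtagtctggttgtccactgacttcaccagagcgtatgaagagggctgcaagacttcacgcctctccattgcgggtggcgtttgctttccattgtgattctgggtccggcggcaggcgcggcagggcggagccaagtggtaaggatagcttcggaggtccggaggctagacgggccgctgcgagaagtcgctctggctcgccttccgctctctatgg

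The Cox6a1 window held 2 NRF1 matches and 1 ETS match and that of Atp5g3 1 NRF1 match, with overlapping matches counted once. The Cox7a1, Cox6b2, Ndufa3 and Cox7a2 windows held none of the 3 motifs, which says only that these letters are not in these 300 bases. Cox7a1 had 7 CpG dinucleotides and Cox7a2 had 20, against a median of 20 over the windows of the 88 genes, of 20 over those of genes tested and of 7 over all windows in the RefSeq table. Windows were found for 75 of the 88 genes (81 windows, with 0 in which different motifs overlap). Of the 81, 24 held an NRF1 match (29.6%, against 12.7% of 12238 windows of genes tested and 6.25% of all 32851 windows). An ETS match was in 17 (21.0%, against 17.2% and 8.86%) and a YY1 match in 9 (11.1%, against 2.94% and 1.4%). Any of the 3 was in 42 of the 81 (51.9%, against 29.0% and 14.8%). A match is a description of the sequence, not evidence of binding.

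Among the other complex IV genes, the ubiquitous isoform gene Cox6a1 had 408 and 459 FPKM in labelled knockouts, against 380 and 339 FPKM in Apc Min (log2 fold change 0.27, limma adjusted p = 0.254). Its groups did not overlap, and it was one of 5 complex IV genes of 14 with higher values in both libraries labelled knockout (against 14.9% of all genes tested), while Cox7a2l and Cox6c were lower in both (against 48.5%). After median-ratio scaling the counts were 9 and 0, against 27.9% and 28.3% of all genes tested. The others of the 5 were Cox7a1, Cox7a2, Cox7b and Ndufa4, whose product was first assigned to complex I and is now counted in complex IV. Ndufa4 had 213 and 249 FPKM in labelled knockouts, against 199 and 206 FPKM in Apc Min (0.18, adjusted p = 0.384). Cox4i1, which encodes the regulatory subunit 4, had 411 and 417 FPKM in labelled knockouts, against 422 and 400 FPKM in Apc Min (0.01), and its groups overlapped. Cox6b2, known from testis, was the lowest of the complex at 6.82 and 7.497 FPKM in labelled knockouts, against 3.95 and 7.54 FPKM in Apc Min, resting on 196 and 222 reads in labelled knockouts, against 109 and 227 reads in Apc Min, and Apc Min replicate 1 alone stood apart. Cox6b1, Cox5b, Cox8a and Cox7c lay between -0.03 and 0.10, and Cox5a and Cox6c at -0.11 and -0.12. The 14 genes split into 10 positive and 4 negative, with a median of 0.07 (0.22 against all genes), and all 14 lay above the median of all genes tested. Cox4i2, Cox6a2, Cox8b and Ndufa4l2, partners of these genes, were not analysed here.

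**Figure D2:**
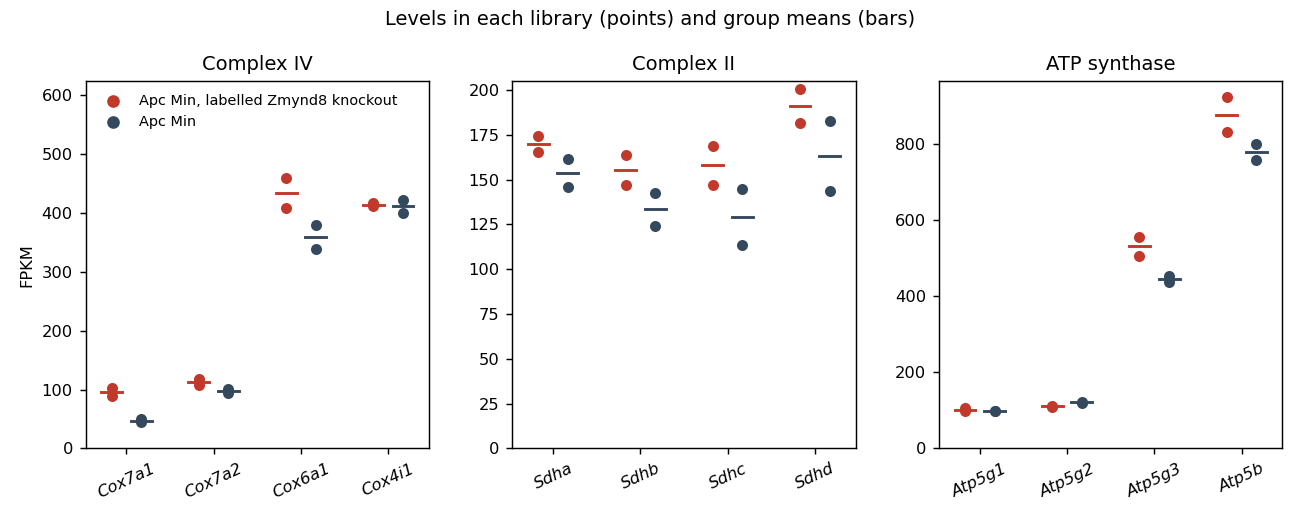
FPKM of 12 genes of complexes IV, II and V in each of the 4 libraries (points, linear axes starting at 0), with group means as bars. Cox7a1 stands at 88.8 and 103 FPKM in labelled knockouts, against 45.3 and 49.3 FPKM in Apc Min, while Cox4i1 overlaps between the groups.

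Complex II, succinate dehydrogenase, had all 4 genes positive, around a median log2 fold change of 0.23 (0.38 above all genes). Sdhc, which encodes a membrane anchor, had 147 and 169 FPKM in labelled knockouts, against 114 and 145 FPKM in Apc Min (0.29, SE 0.16, limma adjusted p = 0.291). Its span overlaps LOC108167746 on the same strand. The other anchor gene, Sdhd, had 182 and 201 FPKM in labelled knockouts, against 144 and 183 FPKM in Apc Min (0.24, adjusted p = 0.367). The iron-sulfur subunit gene Sdhb had 147 and 164 FPKM in labelled knockouts, against 124 and 142 FPKM in Apc Min (0.22, adjusted p = 0.307). Sdha, the flavoprotein gene, had 165 and 174 FPKM in labelled knockouts, against 146 and 162 FPKM in Apc Min (0.15, adjusted p = 0.432). In 3 of the 4 genes the groups did not overlap (against 14.9% of all genes tested that were higher in both libraries labelled knockout), and in Sdhd the upper Apc Min library lay just above the lower library labelled knockout. Each of the 4 was highest in replicate 2 of the libraries labelled knockout and lowest in Apc Min replicate 1, and the gaps between replicates of 1 group were close to the gap between the groups. After median-ratio scaling all genes of complexes III, IV and V were positive as well, and all 4 of complex II were higher in both libraries labelled knockout (against 27.9% of all genes tested). This near unanimity depended on the scaling. After quantile normalization 5 of the 9 genes of complex III, 11 of 14 of complex IV and 10 of 15 of complex V were positive. All 4 of complex II stayed positive there. None passed the test (0 also with limma-voom and 0 at an unadjusted p under 0.05), and a difference between complex II and the other complexes was not tested.

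Over nuclear genes alone the ATP synthase had the highest sum of the complexes, with a summed level of 3871 and 4171 FPKM in labelled knockouts, against 3574 and 3852 FPKM in Apc Min. Its catalytic beta subunit gene Atp5b was the highest of the 88, at 831 and 925 FPKM in labelled knockouts, against 758 and 801 FPKM in Apc Min (log2 fold change 0.17, limma adjusted p = 0.428). The alpha subunit gene Atp5a1, which overlaps Haus1 on the opposite strand, had 502 and 541 FPKM in labelled knockouts, against 470 and 530 FPKM in Apc Min (0.06). Of the peripheral stalk, Atp5o had 306 and 326 FPKM in labelled knockouts, against 256 and 283 FPKM in Apc Min (0.23, adjusted p = 0.272), and of the central stalk, Atp5e had 233 and 255 FPKM in labelled knockouts, against 213 and 211 FPKM in Apc Min (0.20, adjusted p = 0.296). Of the 15 genes 5 were higher in both libraries labelled knockout (Atp5b, Atp5o, Atp5e, Atp5j2 and Atp5g3, against 14.9% of all genes tested) and 2 were lower in both (Atp5j and Atp5g2, against 48.5%), while the Atp5a1 groups overlapped. After median-ratio scaling the counts were 11 and 0, against 27.9% and 28.3% of all genes tested.

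The 3 genes of the proton-carrying c ring of the ATP synthase encode the same mature protein with different import signals, and they did not go the same way. Atp5g3 had 507 and 555 FPKM in labelled knockouts, against 439 and 455 FPKM in Apc Min (0.25, adjusted p = 0.250). Atp5g1 had 97.8 and 106 FPKM in labelled knockouts, against 99.4 and 99.3 FPKM in Apc Min (0.04), and Atp5g2 had 110 and 113 FPKM in labelled knockouts, against 121 and 121 FPKM in Apc Min (-0.12, and 0.05 after median-ratio scaling). Atp5g3 thus supplied 70.9% and 71.7% of the summed FPKM of the 3 genes in labelled knockouts, against 66.5% and 67.4% in Apc Min, and these shares did not overlap. Reads common to the 3 genes could have been split between them. Of all 15 ATP synthase genes 10 had positive and 5 negative fold changes, with a median of 0.09 (0.25 against all genes), and Atp5d, Atp5j2, Atp5f1, Atp5c1, Atp5k, Atp5h, Atp5l and Atp5j lay between -0.08 and 0.13.

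Complex I, the largest with 36 nuclear genes here, was 28 positive and 8 negative, with a median of 0.07 (0.23 against all genes). In 14 genes the values were higher in both libraries labelled knockout, and in 2, Ndufs8 and Ndufv3, lower in both, against 14.9% and 48.5% of all genes tested. After median-ratio scaling these counts were 30 and 1, against 27.9% and 28.3%. Ndufv3, an accessory subunit gene, had 19.3 and 20.2 FPKM in labelled knockouts, against 24.2 and 23.4 FPKM in Apc Min (log2 fold change -0.26, unadjusted p = 0.0356, limma adjusted p = 0.166). Ndufs8, which encodes a core iron-sulfur subunit, had 42.8 and 45.04 FPKM in labelled knockouts, against 49.2 and 53.4 FPKM in Apc Min (-0.22, adjusted p = 0.230). In the other direction, the accessory gene Ndufb6 had 45.02 and 47.1 FPKM in labelled knockouts, against 41.4 and 38.2 FPKM in Apc Min (0.21, adjusted p = 0.244). The 7 nuclear core genes, which carry the cofactors, were 6 positive and 1 negative around 0.07, and the 29 accessory genes 22 positive and 7 negative around 0.08. The accessory gene Ndufb9 was among the highest of the complex, at 154 and 150 FPKM in labelled knockouts, against 128 and 148 FPKM in Apc Min (0.15). The lowest was Ndufa13, at 15.8 and 16.4 FPKM in labelled knockouts, against 16.7 and 14.4 FPKM in Apc Min. Its level is per 2388 bases of counting length, a length recovered from the deposited values. The 9 complex I genes with more than 1500 such bases had a median of 36.4 FPKM, against 58.3 FPKM for the other 27. Whether the length used bears on the order of levels within the complex was not tested.

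Complex III had 9 genes, 6 positive and 3 negative, with a median of 0.06 (0.21 against all genes). Uqcrq, a small subunit gene, had 70.8 and 83.4 FPKM in labelled knockouts, against 62.4 and 69.7 FPKM in Apc Min (0.22, limma adjusted p = 0.317), and it was the 1 gene of the 9 higher in both libraries labelled knockout (against 14.9% of all genes tested), with Uqcrb the 1 lower in both (against 48.5%). After median-ratio scaling the counts were 7 and 0, against 27.9% and 28.3%. The core protein gene Uqcrc1 had 175 and 195 FPKM in labelled knockouts, against 152 and 178 FPKM in Apc Min (0.16, adjusted p = 0.460). Uqcrfs1, which encodes the Rieske iron-sulfur protein, had 143 and 150 FPKM in labelled knockouts, against 123 and 143 FPKM in Apc Min (0.14, adjusted p = 0.479), and the cytochrome c1 gene Cyc1 had 166 and 186 FPKM in labelled knockouts, against 149 and 170 FPKM in Apc Min (0.14). The small subunit gene Uqcrb had 194 and 179 FPKM in labelled knockouts, against 197 and 198 FPKM in Apc Min (-0.08, and 0.09 after median-ratio scaling). Uqcrh, the hinge protein gene and the highest of the complex, had 202 and 224 FPKM in labelled knockouts, against 225 and 222 FPKM in Apc Min (-0.07, and 0.10 after median-ratio scaling). Cycs, the gene of cytochrome c itself, had 69.2 and 71.6 FPKM in labelled knockouts, against 51.9 and 74.5 FPKM in Apc Min (0.18), and its groups overlapped: Apc Min replicate 2 was the highest of the 4 libraries and Apc Min replicate 1 the lowest.

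The assembly factor genes had negative fold changes. All 7 Ndufaf genes, whose products help to build complex I without staying in it, were negative, while 28.3% of all genes tested were positive. The median of the 7 was -0.25, which is -0.10 when set against all genes. Limma and limma-voom called 0, and 2 were lower at an unadjusted p under 0.05 (against 19.1% of all genes tested). Ndufaf3 had 7.01 and 7.75 FPKM in labelled knockouts, against 9.75 and 9.05 FPKM in Apc Min (-0.31, adjusted p = 0.163). Ndufaf6 had 2.02 and 1.77 FPKM in labelled knockouts, against 2.66 and 2.83 FPKM in Apc Min (-0.37, adjusted p = 0.172), and Ndufaf5 had 1.58 and 1.70 FPKM in labelled knockouts, against 2.16 and 2.47 FPKM in Apc Min (-0.33, adjusted p = 0.202). These 3 were lower in both libraries labelled knockout, as were Ndufaf7 (-0.25) and Ndufaf2 (-0.21), while Ndufaf1 (-0.13, and 0.02 after median-ratio scaling) and Ndufaf4 (-0.03, and 0.12) overlapped. The count of 5 of 7 stands against 48.5% of all genes tested, and after median-ratio scaling 3 of the 7 were lower in both, against 28.3%. The 7 genes averaged at most 8.39 FPKM over the 4 libraries, and a fold change on the log2(FPKM + 1) scale understates that of such low genes: Ndufaf6 rested on 220 and 198 reads in labelled knockouts, against 278 and 323 reads in Apc Min. The 2 other genes of this class, Atp5sl and Atp5s, gave 0.11 and -0.06 (0.06 after median-ratio scaling for Atp5s). A separate list of 42 other assembly factors, such as the complex IV factor Surf1, was 10 positive and 32 negative around -0.11, but the direction turned when set against all genes: the median was then 0.05, and after median-ratio scaling 25 of the 42 were positive. In that list 0 were called by limma or limma-voom, and unadjusted p-values under 0.05 numbered 1 higher (7.49% of all genes tested) and 6 lower (19.1% of all genes tested).

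The summed level of the 13 mitochondrially encoded genes differed more between replicates than between groups. COX1, which encodes the catalytic subunit of complex IV, was the highest at 8899 and 8274 FPKM in labelled knockouts, against 8223 and 8261 FPKM in Apc Min (0.06, limma adjusted p = 0.822). CYTB of complex III had 4535 and 3942 FPKM in labelled knockouts, against 4321 and 4043 FPKM in Apc Min (0.02), and ND1 of complex I had 3265 and 2890 FPKM in labelled knockouts, against 3174 and 2859 FPKM in Apc Min (0.03). In both groups replicate 1 was the higher library for CYTB and ND1. ND2 had 1644 and 1357 FPKM in labelled knockouts, against 1499 and 1015 FPKM in Apc Min (0.28, adjusted p = 0.470), ND4 had 1367 and 1196 FPKM in labelled knockouts, against 1231 and 1075 FPKM in Apc Min (0.15), and ND5 had 1577 and 1319 FPKM in labelled knockouts, against 1408 and 1306 FPKM in Apc Min (0.09). ND6, the gene on the opposite strand to the others, had 1033 and 688 FPKM in labelled knockouts, against 770 and 467 FPKM in Apc Min (0.49, SE 0.33, adjusted p = 0.389), and its groups overlapped. ND6 shares 14 bases with ND5 on the other strand, and the labels used here do not say whether the counting used strand.

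The summed mitochondrial level was 22834.1 and 20076.5 FPKM in labelled knockouts, against 21130.9 and 19434.5 FPKM in Apc Min. Replicate 1 of the libraries labelled knockout was highest for 10 of the 13 genes, and Apc Min replicate 2 lowest for 8. These genes took 2.94% and 2.61% of all reads, against 2.72% and 2.55%. The ratio of mitochondrial to nuclear subunit FPKM, which no scaling between libraries changes, was 2.05 and 1.68 in labelled knockouts, against 2.01 and 1.76 in the Apc Min libraries, so the groups overlapped. On the log2 scale the group means differed by -0.02, with a pooled SD between libraries of 0.17. An exact permutation test of this design cannot give a p below 0.333. Of the 13 genes 10 were positive (against 28.3% of all genes tested) around a median of 0.09, or 0.24 against all genes. Limma and limma-voom called 0, and 1 was lower at an unadjusted p under 0.05 (ND4L, against 19.1% of all genes tested). Without replicate 1 of the libraries labelled knockout the median was -0.03, and without Apc Min replicate 2 it was -0.03 as well. After median-ratio scaling of all libraries 12 of the 13 were positive around 0.26. Then 9 were higher in both libraries labelled knockout (against 27.9% of all genes tested) and 1 was lower in both (against 28.3%). The authors' deposited table gave q-values under 0.05 to ND6 (5.69e-09), ND2 (4.5e-05) and COX1 (0.00818), all with a higher level. Over all genes 1.26% had such a q-value with a higher level and 0.876% with a lower one. The test behind these q-values is not named. The ND6 and ND2 groups overlapped, with limma adjusted p of 0.389 and 0.470. COX1 did not overlap, with a log2 fold change of 0.06 and a limma adjusted p of 0.822.

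**Figure D3:**
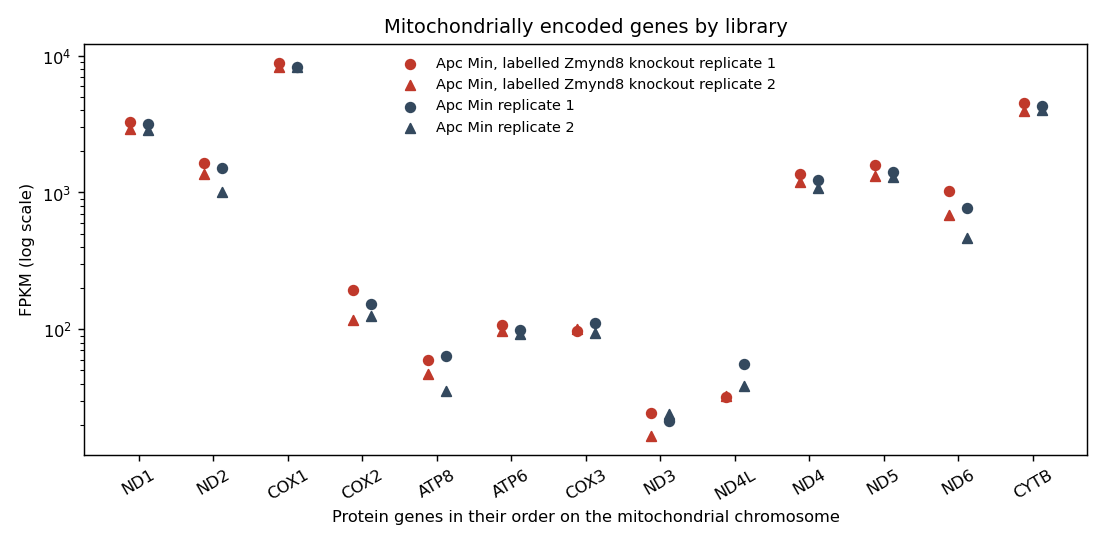
FPKM (log axis) of the 13 protein genes of the mitochondrial chromosome in each library, in their order along the chromosome. Circles are replicate 1 and triangles replicate 2; from COX2 to ND4L the genes lie between 16.6 and 193 FPKM, the others between 467 and 8899 FPKM.

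The 6 genes that lie side by side from COX2 to ND4L were far lower than the other 7. Their means over the 4 libraries ran between 21.6 and 147 FPKM, against 739 to 8414 FPKM for the others. COX2 had 193 and 116 FPKM in labelled knockouts, against 154 and 125 FPKM in Apc Min (0.11), and the other complex IV gene of the stretch, COX3, had 97.8 and 99.6 FPKM in labelled knockouts, against 110 and 93.5 FPKM in Apc Min (-0.04, and 0.13 after median-ratio scaling). The ATP synthase genes ATP6 and ATP8 had 107 and 96.8 FPKM in labelled knockouts, against 99.1 and 91.6 FPKM in Apc Min (0.10), and 59.2 and 46.9 FPKM in labelled knockouts, against 64.0 and 35.6 FPKM in Apc Min (0.14). ND3 had 24.4 and 16.6 FPKM in labelled knockouts, against 21.3 and 24.0 FPKM in Apc Min (-0.16, and 0.0082 after median-ratio scaling). ND4L had 31.8 and 32.7 FPKM in labelled knockouts, against 55.9 and 38.7 FPKM in Apc Min (-0.51, adjusted p = 0.180), with no overlap, and without Apc Min replicate 2 it gave -0.77 (adjusted p = 0.0407). COX1 and COX2, like the other genes of the same strand, are known to be cut from a common long transcript. Copies of mitochondrial DNA in the nuclear genome can share reads with these genes, and whether that bears on the low stretch was not tested. The 2 ribosomal RNA genes of the mitochondrial chromosome, mt-Rnr1 and mt-Rnr2, stood at 1156 and 994 FPKM in labelled knockouts, against 986 and 1225 FPKM in Apc Min, and at 2034 and 1787 FPKM in labelled knockouts, against 1536 and 1599 FPKM in Apc Min.

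Nuclear genes that act on mitochondrial DNA were mostly negative. Of 31 genes for its expression and maintenance tested, 3 had positive and 28 negative fold changes, with a median of -0.25, or -0.10 against all genes, of which 28.3% were positive. Limma and limma-voom called 0, and unadjusted p-values under 0.05 numbered 1 higher (Polg2, against 7.49% of all genes tested) and 6 lower. The lower share was close to the 19.1% of all genes tested. Lrpprc, whose product stabilises mitochondrial messenger RNA, had 11.3 and 12.5 FPKM in labelled knockouts, against 14.8 and 16.4 FPKM in Apc Min (-0.36, adjusted p = 0.136). In the other direction Polg2, the accessory subunit gene of the mitochondrial DNA polymerase, had 4.61 and 4.28 FPKM in labelled knockouts, against 2.74 and 3.11 FPKM in Apc Min (0.47, adjusted p = 0.122).

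Among nuclear regulators of respiratory genes, Ppara rose. Ppara, a fatty acid-activated nuclear receptor gene, had 9.82 and 10.5 FPKM in labelled knockouts, against 4.67 and 5.05 FPKM in Apc Min (0.93, SE 0.11, limma adjusted p = 0.0470). The call lay close to the threshold: it held under 4 of 13 alternatives, limma-voom among them (adjusted p = 0.0334), and was lost under the other 9, with adjusted p up to 0.419 without replicate 2 of the libraries labelled knockout. Ppargc1a, which encodes the coactivator PGC-1 alpha, had 5.70 and 6.47 FPKM in labelled knockouts, against 4.41 and 3.38 FPKM in Apc Min (0.54, adjusted p = 0.130). Both genes were higher in both libraries labelled knockout. By contrast, the related coactivator gene Pprc1 had 3.23 and 3.22 FPKM in labelled knockouts, against 5.90 and 4.95 FPKM in Apc Min (-0.60, adjusted p = 0.0981), and Hcfc1, a cofactor gene, had 9.39 and 9.29 FPKM in labelled knockouts, against 14.5 and 13.7 FPKM in Apc Min (-0.55, adjusted p = 0.0765). Of the 13 regulators 3 were positive and 10 negative around -0.21, or -0.06 against all genes. Ppara was the 1 called higher (against 0.595% of all genes tested) and 0 were called lower. Unadjusted p-values fell under 0.05 for 2 higher genes (against 7.49% of all genes tested) and 2 lower genes (against 19.1%). The genes of the motif-binding factors had low or middling levels: Nrf1 stood at 2.28 and 2.16 FPKM in labelled knockouts, against 2.40 and 2.58 FPKM in Apc Min, Gabpa at 11.5 and 11.1 FPKM in labelled knockouts, against 12.8 and 9.98 FPKM in Apc Min, and Yy1 at 21.9 and 20.6 FPKM in labelled knockouts, against 27.4 and 23.1 FPKM in Apc Min.

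Pathways on either side of the chain were mixed. Of 15 genes listed for the tricarboxylic acid cycle outside complex II, 9 had positive and 6 negative fold changes. The list counts Pcx, the gene of pyruvate carboxylase, which feeds the cycle and is not a step of it. Their median was 0.17, or 0.32 against all genes, with 0 called by limma or limma-voom. At an unadjusted p under 0.05, 3 were higher (Mdh2, Ogdh and Pcx, against 7.49% of all genes tested) and 1 was lower (against 19.1%). Mdh2, the mitochondrial malate dehydrogenase gene, had 571 and 738 FPKM in labelled knockouts, against 375 and 382 FPKM in Apc Min (0.78, adjusted p = 0.0940), and Idh2, the NADP-dependent isocitrate dehydrogenase gene, had 18.7 and 18.4 FPKM in labelled knockouts, against 24.5 and 26.7 FPKM in Apc Min (-0.44, adjusted p = 0.0958). The 8 genes of other dehydrogenases that feed ubiquinone were 3 positive and 5 negative around -0.05, and the 13 genes of ubiquinone synthesis 4 positive and 9 negative around -0.06. Set against all genes these medians were 0.10 and 0.09. After median-ratio scaling 6 of the 8 and 8 of the 13 were positive, with 0 called in either list by limma or limma-voom. At an unadjusted p under 0.05, 1 was higher and 2 were lower of the 8, and 0 were higher and 1 lower of the 13. The shares over all genes tested were 7.49% higher and 19.1% lower. Of 14 glycolysis genes 5 were positive and 9 negative around -0.17, or -0.01 against all genes. Limma and limma-voom called 0, and 3 were lower at an unadjusted p under 0.05, a share close to the 19.1% of all genes tested. Hk2, the hexokinase gene of dividing and tumour cells, had 12.3 and 8.08 FPKM in labelled knockouts, against 31.8 and 37.0 FPKM in Apc Min (-1.68, adjusted p = 0.0621).

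**Figure D4:**
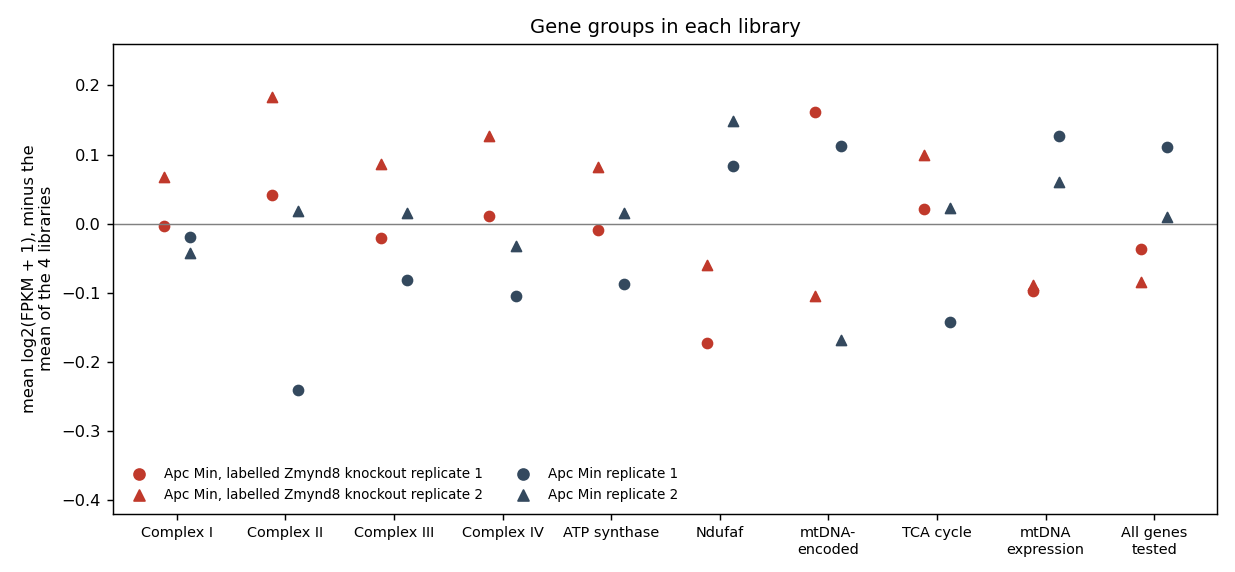
Mean log2(FPKM + 1) of each gene group in each library, less the mean of the 4 libraries, so that 0 is the average. The nuclear complexes lie highest in replicate 2 of the libraries labelled knockout, and the mitochondrially encoded genes lie higher in replicate 1 of both groups. The Ndufaf and mitochondrial DNA expression genes lie lower in the libraries labelled knockout, and so does the mean of all genes tested.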

How the data were processed

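The authors deposited 1 table, with columns per the file headers for each library's value, group means, p-value, q-value and log2 fold change, but no unit or test is named there. The deposited values were read as FPKM, because reads scaled by gene length and library total came out whole within 0.002 reads for 13359 of 13359 genes. Tools in the submitters' processing notes are HISAT2, BWA and SICER, and builds are mm10 and hg38. The counter, its annotation and its strand setting are not named there or in the labels used here, so 10 members with an overlapping gene on the other strand are uncertain. On the same strand, the span of Sdhc overlaps LOC108167746 by 2011 bases and that of Atp5b overlaps Mir677 by 78 bases. How reads in such overlaps were assigned is not known. Of 13527 entries 168 were exact repeats (Cox7a1 among them) and were used once. Columns of per-sample values left unused numbered 0, and 4 ChIP libraries of HCT116 cells were not analysed here.

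Limma 3.58.1 in R 4.3.3 was run on log2(FPKM + 1) over the 12948 genes that reached 1 FPKM in at least 2 libraries, with genotype as the only term, a variance trend and robust moderation (residual degrees of freedom 2, median prior 3.02). P-values were adjusted over all genes tested by the Benjamini-Hochberg method, with calls made below 0.05. Intervals cover 95%. The design named a count test for counts and this one for normalized values. Limma-voom used the recovered whole reads with TMM factors and served as an alternative, as did median-ratio and quantile scaling, a common nuclear sum, a pseudocount of 0.1, other filters, no trend, a replicate block and leaving out each library. Simulated data with 12776 genes held 48, 51, 54 and 47 genes changed 1.2-, 1.5-, 2- and 4-fold. Of these, 0%, 13.7%, 79.6% and 87.2% were called, and 13 unchanged genes were called falsely. False calls were thus a larger share of the calls in this simulation than the threshold of 0.05 aims at. With 2 libraries a group, an exact permutation test cannot reach the threshold. Members and lists were chosen with earlier results of these data known. Genes named with values are the 3 with the smallest p, the 2 highest and the lowest of each complex, paralogs, all mitochondrially encoded genes and up to 4 of smallest p in each other list; the muscle genes, Capns1, Cyc1, Cycs and the ribosomal RNA genes were added after their values were seen. One gene that this rule names is not reported here. Promoter sequences are from RefSeq (GRCm38.p6).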

Additional observations from a re-analysis of the deposited data

How the results depend on the processing

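Of the 88 genes, 0 were called higher and 0 lower in the limma fit. Limma-voom on recovered reads and scaling to a common nuclear sum each called 1 higher (Cox7a1), leaving out 1 library gave 0 to 1, and no alternative called a member lower. Over all genes tested, the 77 called higher became 2 with a filter at a mean of 5 FPKM, 199 with limma-voom, 11 without trend and robust moderation, 1 without a filter and 0 with the replicate block, and ran from 0 to 230 with 1 library left out. The 17 called lower became 0 with the 5 FPKM filter, 0 without trend, 4 after median-ratio scaling, 0 without a filter, 5 after quantile normalization and 0 with the block, and ran from 0 to 386 with 1 library left out (386 without Apc Min replicate 2). Leaving out a library leaves its group with 1, which is assumed to vary like the other group. Deviations of same-numbered libraries correlated at 0.0452 over 12948 genes, which cannot show whether the pools were paired. The mitochondrial sums were higher in replicate 1 of both groups, and the nuclear subunit sums in replicate 2 of both. The block with 2 pairs ended every call, including that of Ppara. The median of the subunit genes, 0.0933, was 0.2661 with limma-voom and 0.2646 after median-ratio scaling, which move all genes by 0.14 and 0.15, and ran from 0.0402 to 0.1287 with 1 library left out (0.0402 without replicate 2 of the libraries labelled knockout). The median of the mitochondrially encoded genes ran from -0.0312 to 0.1688 with 1 library left out, and their log2 ratio to the nuclear genes from -0.1605 to 0.1290.

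Sign changes were followed for 64 named genes, and none of those that changed sign was called by limma. Over all 88 members, the 60 positive fold changes became 81 with limma-voom and 81 after median-ratio scaling. Members beyond those listed here therefore changed sign as well. With limma-voom and after median-ratio scaling, Atp5g2 gave 0.0497 and 0.0510, Atp5s 0.086 and 0.059, COX3 0.1297 and 0.1301, Cox7a2l 0.0690 and 0.0699, ND3 0.0064 and 0.0082, Ndufaf1 0.0218 and 0.0219, Ndufaf4 0.1348 and 0.1168, Uqcrb 0.0889 and 0.0901, and Uqcrh 0.0995 and 0.1008. Quantile normalization gave 0.0907 for Atp5s, -0.0383 for ND5, 0.0349 for Ndufaf1 and 0.133 for Ndufaf4. With 1 library left out, values ran from -0.2764 to 0.5536 for ATP8, -0.0260 to 0.1476 for Atp5a1, -0.0221 to 0.0962 for Atp5g1, -0.2102 to 0.0860 for Atp5s, -0.2539 to 0.4712 for COX2, -0.1601 to 0.0769 for COX3, -0.0845 to 0.1177 for CYTB, -0.0261 to 0.0495 for Cox4i1, -0.0672 to 0.7199 for Cox6b2, -0.0569 to 0.1082 for Cox8a, -0.0804 to 0.4314 for Cycs, -0.0596 to 0.1163 for ND1, -0.0053 to 0.5570 for ND2, -0.4234 to 0.1095 for ND3, -0.0395 to 0.2174 for ND5, -0.0522 to 0.1501 for Ndufa13, -0.3514 to 0.0975 for Ndufaf1, -0.1486 to 0.0884 for Ndufaf4 and -0.1443 to 0.0006 for Uqcrh. The cause of these changes was not tested, other than that limma-voom and median-ratio scaling raise the values of the libraries labelled knockout for all genes. Only 2 pools a group limit what could be called.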
